A study of Mus musculus with 5 samples.

Results

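Syndecans and glypicans are the 2 families of heparan sulfate proteoglycans that sit in the plasma membrane. The account covers the mRNAs of all 10 mouse genes, syndecans Sdc1 to Sdc4 and glypicans Gpc1 to Gpc6, which were taken by symbol from the 55335 gene IDs of the deposited table. All 10 were matched, 9 had enough counts to be tested, and Gpc5 had 0 counts in every library.

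The cells were primary lung fibroblasts of mice, grown in culture. TGF-β1 at 5 ng/mL for 24 h was given to the cells of 3 libraries, and vehicle to those of 2 control libraries. No genotype, strain, age, sex or passage is stated, and the series calls the libraries independent biological replicates without saying whether they came from separate animals or dishes, so the p-values cover only how far these 5 libraries vary, which may be technical. Strand-specific polyA libraries held 39769301 to 43163967 counts with TGF-β1, against 34283288 and 40245128 counts in the controls.

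A syndecan is a transmembrane core protein whose short cytoplasmic tail binds PDZ-domain proteins and, in syndecan-4, protein kinase C α. A glypican is a folded core held to the outer membrane leaflet by a GPI anchor. Both carry long sulfated heparan sulfate chains that hold growth factors, morphogens and matrix proteins at the cell surface, and fibroblasts use syndecan-4 with integrin α5β1 when they attach to fibronectin and build focal adhesions.

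Libraries of a group resembled each other, with Pearson correlations of log2 CPM of 0.987 to 0.989 within groups and 0.958 to 0.96 between groups. TGF-β1 replicate 3 stood somewhat apart from replicates 1 and 2, with chi-square statistics of 8.47 and 8.41 per degree of freedom against 4.06 between those. All 8 genes listed as known TGF-β responses were higher with TGF-β1, in a list chosen with earlier results of these data known. Acta2, listed with the smooth muscle markers and named after its value was seen, was slightly lower (log2 fold change -0.12). Of 9 fibroblast markers 4 were higher and 5 lower, where 21.3% of all genes tested were called higher and 23.2% lower. Col1a1 had 16475 ± 72.7 CPM with TGF-β1 and 10215 ± 316 CPM in control. Pdgfra, Dcn and Thy1 fell, with log2 fold changes of -2.02, -1.90 and -0.93, and Lum was nearly absent at 0.0476 to 0.199 CPM with TGF-β1 and 0.618 and 0.499 CPM in controls. Epithelial markers summed to 5.07 to 5.69 CPM with TGF-β1 and 3.65 and 3.28 CPM in controls (1 of 3 tested higher), with Sftpc, Sftpb, Scgb1a1 and Nkx2-1 at 0 in every library. Endothelial markers summed to 5.74 to 6.39 CPM with TGF-β1 and 6.54 and 7.58 CPM in controls, and the 6 tested did not pass.

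The members differed in direction between the groups. Sdc4, Gpc3 and Gpc6 fell, Sdc1, Sdc3, Gpc1 and Gpc4 rose, and Sdc2 and Gpc2 did not pass the test. Called were thus 4 members higher and 3 lower, 77.8% of the 9 tested, where 44.5% of all 16380 genes tested were called (21.3% higher and 23.2% lower). The ranges of the TGF-β1 and control libraries did not overlap for those 7 members, where this held for 64.6% of all genes tested. At 2-fold or more, 4 members were called (Sdc4, Gpc1, Gpc3 and Gpc6), where 10.9% of all genes were. The test throughout is edgeR's quasi-likelihood test with Benjamini-Hochberg adjustment over all genes tested and a threshold of 0.05. Levels of a gene across libraries are CPM, counts scaled to library size with TMM factors, as mean ± SD with n = 3 for TGF-β1 and n = 2 for control, and each log2 fold change divides TGF-β1 by control and comes with its standard error (SE).

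**Figure D1:**
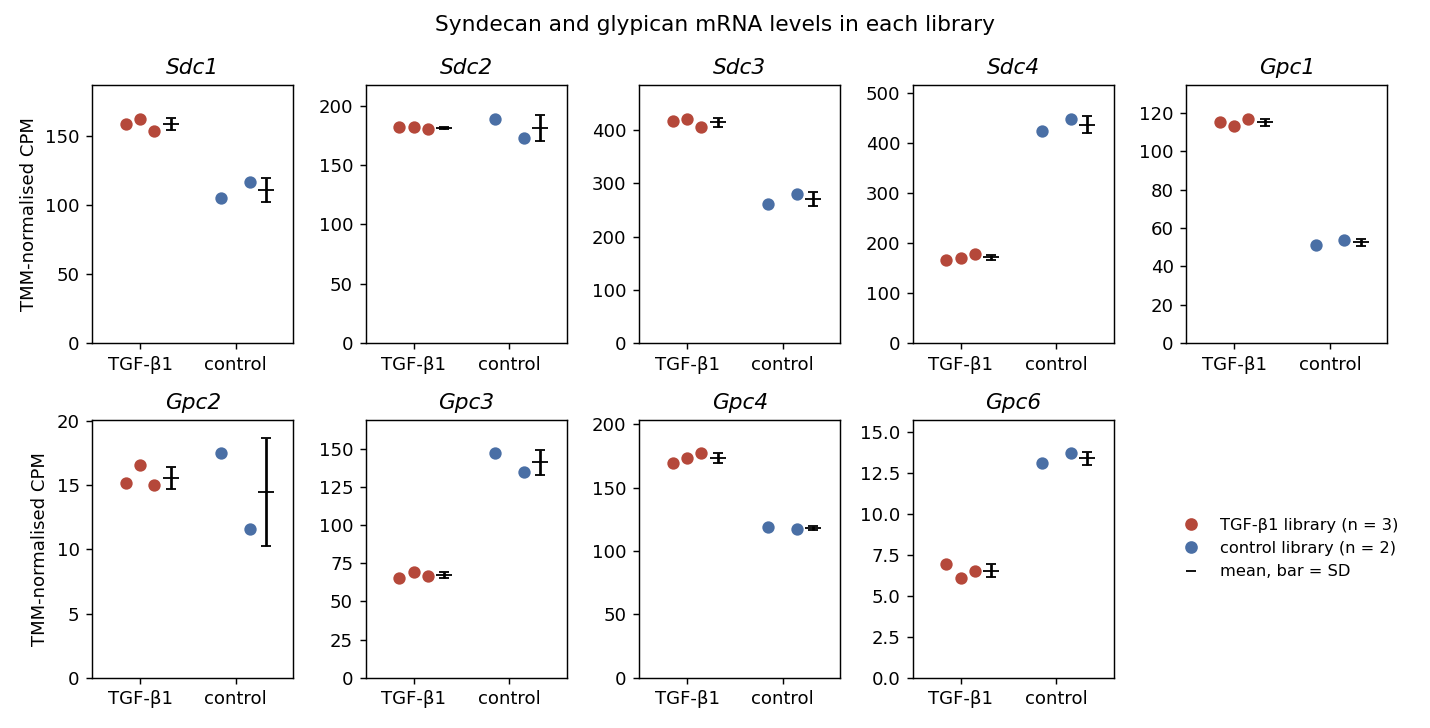
TMM-normalised CPM (y axes, from 0) of the 9 detected members in each TGF-β1 library (red, n = 3) and control library (blue, n = 2), with the mean and SD in black. The groups do not overlap for Sdc1, Sdc3, Sdc4, Gpc1, Gpc3, Gpc4 and Gpc6, and they overlap for Sdc2 and Gpc2.

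Among the syndecans, Sdc4 had the largest change. Sdc4 encodes syndecan-4, the syndecan of focal adhesions (ENSMUSG00000017009, chromosome 2, 164424247 to 164443887, minus strand of GRCm38). It had 166, 169 and 177 CPM in the TGF-β1 libraries, against 425 and 449 CPM in the control libraries. Every TGF-β1 library lay far below both controls. The means were 171 ± 5.76 CPM with TGF-β1 and 437 ± 17.0 CPM in control, a log2 fold change of -1.36 (SE 0.038, adjusted p = 7.14e-09), so that control cells held 2.56-fold more. Of the 16380 genes tested, 933 had a more negative log2 fold change, called or not. Fewer cells that express a gene and less of its RNA per cell cannot be told apart in such bulk libraries.

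Sdc1 and Sdc3 form the other pair within the syndecan family by sequence and can carry chondroitin sulfate beside heparan sulfate. Both rose. Sdc1, the syndecan best known from epithelia and plasma cells (ENSMUSG00000020592, chromosome 12, 8771323 to 8793715, plus strand), had 159, 163 and 154 CPM with TGF-β1, against 105 and 117 CPM in controls. The groups were separate, and the log2 fold change was 0.52 (SE 0.052, adjusted p = 4.05e-05). Sdc3, best known from the nervous system and muscle (ENSMUSG00000025743, chromosome 4, 130792537 to 130826319, plus strand), had 418, 422 and 406 CPM with TGF-β1, against 261 and 280 CPM in controls. Here too every TGF-β1 library was above both controls, with a log2 fold change of 0.62 (SE 0.036, adjusted p = 1.09e-06). Tested against a 1.5-fold change instead of 0, neither passed (adjusted p = 1 for Sdc1 and 0.447 for Sdc3), whereas Sdc4 still did.

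Sdc2, the pair partner of Sdc4 and the syndecan most associated with mesenchymal cells (ENSMUSG00000022261, chromosome 15, 32920723 to 33034935, plus strand), had 182, 182 and 180 CPM with TGF-β1, against 189 and 173 CPM in controls. The TGF-β1 values lay between the controls. The log2 fold change was 0.00 (SE 0.041, 95% interval -0.09 to 0.09, adjusted p = 0.98).

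The stretches before the RefSeq transcription starts of the 2 syndecans that rose and of Sdc4, which fell, are shown for comparison, from RefSeq on GRCm38.p6, 5′ to 3′ on the gene's strand. Capitals mark CAGAC, the core of the SMAD-binding motif, on either strand (GTCTG where it is read on the other strand). Bases that GENCODE M21 assigns to an exon of the gene are left out, which shortens the Sdc1 stretch to the bases 250 to 74 before the start. The Sdc3 and Sdc4 stretches run from 250 to 1 before it, and that of Sdc4 lies inside the longer GENCODE gene, outside its exons.
Sdc1, chr12:8771146-8771322, plus strand: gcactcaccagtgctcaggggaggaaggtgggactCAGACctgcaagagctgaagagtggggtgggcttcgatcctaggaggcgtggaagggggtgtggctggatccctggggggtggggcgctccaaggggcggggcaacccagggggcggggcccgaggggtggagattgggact
Sdc3, chr4:130792287-130792536, plus strand: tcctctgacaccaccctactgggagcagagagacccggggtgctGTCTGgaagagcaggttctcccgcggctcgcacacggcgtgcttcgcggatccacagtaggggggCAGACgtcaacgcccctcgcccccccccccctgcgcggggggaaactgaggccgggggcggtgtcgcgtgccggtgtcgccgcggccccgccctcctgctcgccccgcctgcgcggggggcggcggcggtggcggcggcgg
Sdc4, chr2:164443189-164443438, minus strand: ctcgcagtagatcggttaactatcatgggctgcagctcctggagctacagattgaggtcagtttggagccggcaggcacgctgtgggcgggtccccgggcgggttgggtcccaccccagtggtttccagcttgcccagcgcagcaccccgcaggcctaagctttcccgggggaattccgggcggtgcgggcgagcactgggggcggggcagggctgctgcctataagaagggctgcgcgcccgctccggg
In Sdc1 the motif begins 215 bases before the start, and in Sdc3 it begins 141 bases before it on the gene's strand and 206 bases before it on the other strand. Of the 7 members with a RefSeq promoter window of 300 bases (Sdc1, Sdc3, Sdc4, Gpc2, Gpc3, Gpc4 and Gpc5), 2 held CAGAC, where 49.6% of all 32851 windows of that length did. These were Sdc1 and Sdc3. The window of Gpc4, which also rose, held none, like those of Sdc4 and Gpc3, which fell. The AP-1 motif TGANTCA was searched on both strands too. It was in 0 of the 7 and in 7.81% of all windows. Matches of the 2 motifs can share end bases, and a match describes letters only.

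Glypicans fall into a subfamily of Gpc1, Gpc2, Gpc4 and Gpc6 and another of Gpc3 and Gpc5. Gpc1, the glypican that acts with FGF2 and VEGF-A in several cell types (ENSMUSG00000034220, chromosome 1, 92831645 to 92860779, plus strand), had 115, 113 and 117 CPM with TGF-β1, against 51.2 and 53.7 CPM in controls. Every TGF-β1 library lay well above both controls. The log2 fold change was 1.13 (SE 0.045, adjusted p = 7.03e-08), or 2.19-fold, the largest rise among the members. A more positive log2 fold change, called or not, was found for 583 of the 16380 genes tested.

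Gpc4, known as a modulator of FGF, BMP and WNT signals (ENSMUSG00000031119, chromosome X, 52053021 to 52165252, minus strand), had 169, 173 and 177 CPM with TGF-β1, against 119 and 117 CPM in controls. It rose without overlap by a log2 fold change of 0.55 (SE 0.037, adjusted p = 2.54e-06), though not past 1.5-fold (adjusted p = 1 against that null). Gpc3, which in mice restrains growth by binding hedgehog proteins (ENSMUSG00000055653, chromosome X, 52272426 to 52613950, minus strand), had 65.6, 69.2 and 66.8 CPM with TGF-β1, against 147 and 135 CPM in controls. It fell in every TGF-β1 library, with a log2 fold change of -1.07 (SE 0.049, adjusted p = 1.82e-07). Gpc3 and Gpc4 are neighbours on the same strand, 107 kb apart, and moved in opposite directions.

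Gpc6 (ENSMUSG00000058571, chromosome 14, 116925315 to 117976544, plus strand) was scarcer, with 6.93, 6.11 and 6.54 CPM with TGF-β1, against 13.1 and 13.7 CPM in controls. It fell by 1.04 on the log2 scale (SE 0.11, adjusted p = 4.33e-05) and did not overlap between groups. Gpc5, its neighbour 400 kb away on the same strand (ENSMUSG00000022112, 115092215 to 116525179), had 0 counts in all 5 libraries. At these depths 3 counts, the limit that a count of 0 allows, are 0.0695 to 0.0875 CPM per library, for counting error only.

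Gpc2, a glypican of developing neurons (ENSMUSG00000029510, chromosome 5, 138273655 to 138280005, minus strand), had 15.2, 16.6 and 15 CPM with TGF-β1, against 17.5 and 11.6 CPM in controls. The 2 controls differed from each other more than the group means did, and the log2 fold change of 0.10 did not pass (SE 0.15, 95% interval -0.25 to 0.45, adjusted p = 0.628). Its value is uncertain. It shares 2376 exon bases on the same strand with Gm43720, which had 178 counts in control 2, 0 in control 1 and 3, 3 and 1 counts in the TGF-β1 libraries. With both genes' counts joined, an alternative chosen after seeing the data, the values were 15.2, 16.6 and 15 CPM with TGF-β1 and 17.5 and 15.8 CPM in controls, and the log2 fold change was -0.09 (adjusted p = 0.451). Without control replicate 1 Gpc2 was called higher (log2 fold change 0.43, adjusted p = 0.0291), and without control replicate 2 the sign turned (-0.17, adjusted p = 0.291). No other member had an exon overlap with a gene at more than 0.0031 of its own level.

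**Figure D2:**
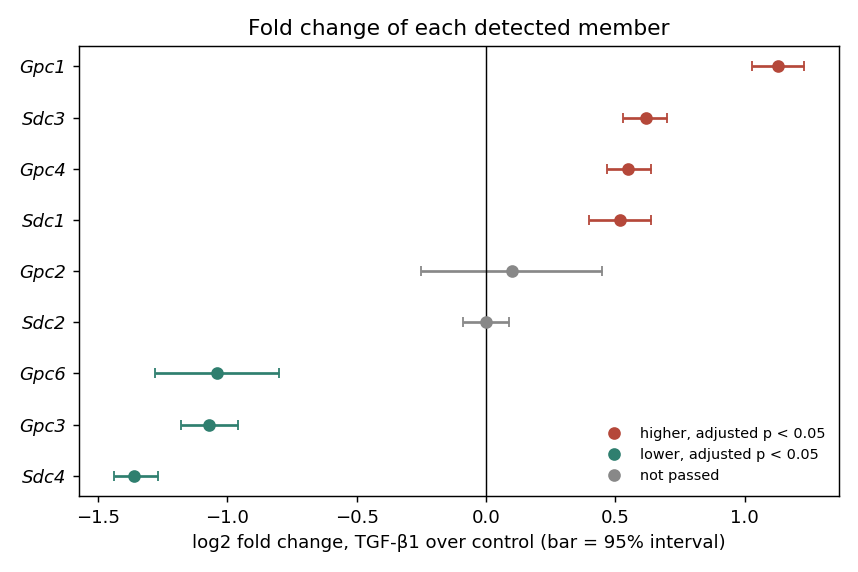
Log2 fold change, TGF-β1 over control (x axis), of the 9 detected members, with 95% intervals from the quasi-likelihood fit; colours give the call at an adjusted p of 0.05. Gpc1 lies highest at 1.13 and Sdc4 lowest at -1.36, and the intervals of Sdc2 and Gpc2 include 0.

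To compare members with each other, levels were divided by the length of each gene's annotated exons, giving RPKM (TMM-scaled CPM per kilobase). In control cells Sdc4 was by far the first, at 172 ± 6.66 RPKM, above 98.7% of all genes tested. With TGF-β1 it stood at 67.1 ± 2.26 RPKM, above 96.1% of them. In the TGF-β1 libraries Sdc3 (69.3 ± 1.41 RPKM), Sdc4 and Gpc4 (65.2 ± 1.48 RPKM) led, with ranges that overlapped from each to the next. Then came Sdc2 at 51.3 ± 0.259, Sdc1 at 41.7 ± 1.18, Gpc3 at 25.0 ± 0.692 and Gpc1 at 22.3 ± 0.323 RPKM, each apart from the next. In controls Sdc4 was followed by Gpc3 (52.5 ± 3.11 RPKM) and Sdc2 (51.3 ± 3.08 RPKM), which overlapped, then by Sdc3 (45.2 ± 2.23) and Gpc4 (44.5 ± 0.707), which also overlapped, and by Sdc1 at 29.1 ± 2.32 and Gpc1 at 10.2 ± 0.344 RPKM. Gpc2 and Gpc6 were last of those detected in both groups, at 3.64 ± 0.204 and 1.02 ± 0.0637 RPKM with TGF-β1 and 3.40 ± 0.987 and 2.09 ± 0.0632 RPKM in controls. With the longest transcript as the length, Sdc3 moved ahead of Sdc2 in controls (54.5 and 51.3 RPKM). The order in the TGF-β1 libraries was the same, but the gaps changed. There Sdc3 stood at 83.5 ± 1.7 and Sdc4 at 69.5 ± 2.35 RPKM, and Sdc2 at 51.3 ± 0.259 and Sdc1 at 50.3 ± 1.43 RPKM. Which neighbours lie apart thus depends on the length used.

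Sdc4 made up 19% to 20% of the summed per-length level of the 10 genes in the TGF-β1 libraries, against 41.0% and 42.8% in the controls. Sdc3 made up 19.5% to 20.3% with TGF-β1, against 10.7% and 11.3% in controls, and Gpc4 18.6% to 19.2%, against 10.7% and 11%. For Gpc3 the share was 7.10% to 7.38% with TGF-β1, against 12.2% and 13.4% in controls. The ratio of Sdc4 to Sdc3 per length was 0.937, 0.94 and 1.03 in the TGF-β1 libraries, and 3.83 and 3.77 in the controls. Gpc3 to Gpc4 gave 0.382, 0.395 and 0.372 with TGF-β1, and 1.22 and 1.14 in controls. In all 3 TGF-β1 libraries Gpc4 thus exceeded Gpc3, and in both controls Gpc3 exceeded Gpc4.

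The sum over the 4 syndecans was 229 ± 1.44 RPKM with TGF-β1 and 297 ± 8.13 RPKM in controls. That over the 6 glypicans was 117 ± 1.86 RPKM with TGF-β1 and 113 ± 4.39 RPKM in controls. These sums are descriptions without a test. The syndecan sum was lower with TGF-β1 by more than the replicate spread, while the glypican sums overlapped, at 115, 118 and 119 RPKM with TGF-β1 and 116 and 110 RPKM in controls. That overlap depends on the division by length. In CPM the glypican sums were 372, 378 and 382 with TGF-β1 and 348 and 331 in controls, without overlap.

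**Figure D3:**
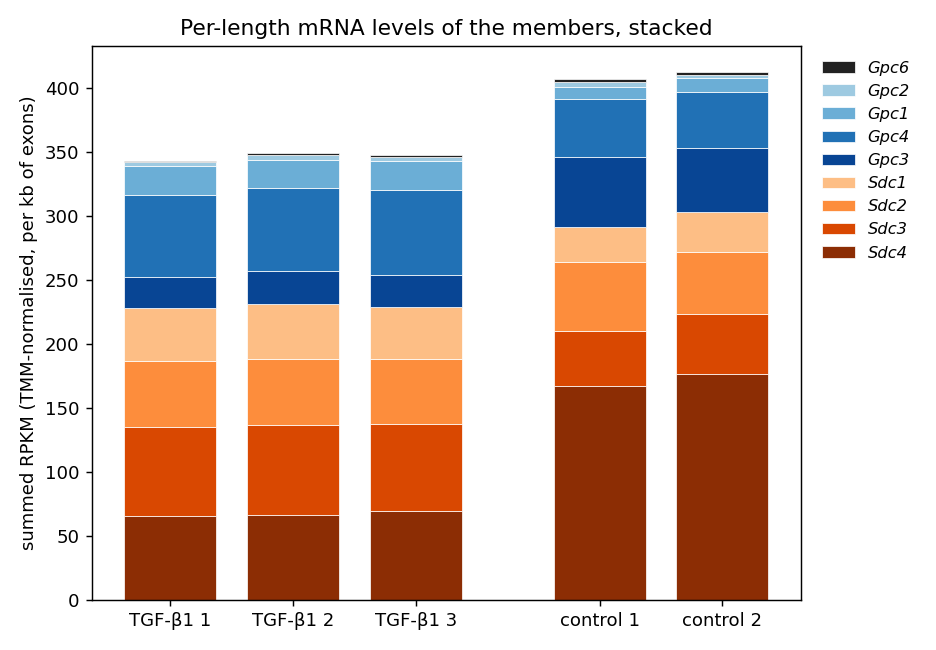
Per-length level (RPKM, y axis from 0) of each member, stacked for each of the 3 TGF-β1 libraries (left) and the 2 control libraries (right), syndecans in orange to brown and glypicans in blues and black. The brown Sdc4 segment at the bottom averages 67.1 RPKM with TGF-β1 and 172 RPKM in controls, while the totals average 347 and 410 RPKM.

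Markers of other cells moved in the same libraries. The 13 mesothelial markers summed to 287 to 311 CPM with TGF-β1 and 1716 and 1620 CPM in controls. Of these 13, 11 were lower and 2 did not pass, where 21.3% of all genes tested were called higher and 23.2% lower. Of 8 macrophage and leukocyte markers tested, of 10 listed, 7 were lower. The 1 that was higher, named after its value was seen, was Ptprc (log2 fold change 0.29). The list summed to 1456 to 1490 CPM with TGF-β1 and 2510 and 2428 CPM in controls, with Cd3e at 0 in every library. Most of that sum was Lyz2, at 1136 ± 11.7 CPM with TGF-β1 and 1994 ± 49.4 CPM in control. Pericyte and smooth muscle markers summed to 7609 to 7649 CPM with TGF-β1 and 8802 and 8429 CPM in controls (1 of 8 tested higher, 5 lower). Acta2 made up most of this sum, averaging 5482 CPM with TGF-β1 and 5967 CPM in control. The 1 called higher was Cspg4, which averaged 47.9 CPM with TGF-β1 and 4.31 CPM in control (log2 fold change 3.47). The part of other cells in the falls of Sdc4, Gpc3 and Gpc6 and in the rises of the other members was not tested.

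Heparan sulfate is built on the core proteins by enzymes of the Golgi. Of 32 such genes listed, 26 were tested. There were 10 calls higher, 2 lower and 14 without a call, so that 46.2% were called, near the 44.5% of all genes tested. By direction, 38.5% were higher and 7.69% lower, beside 21.3% and 23.2% of all genes tested. The median log2 fold change was 0.07 beside 0.00 over all genes tested. Glce, the epimerase that turns glucuronic into iduronic acid in the chain, had 138 ± 3.57 CPM with TGF-β1 and 59.7 ± 5.10 CPM in control (log2 fold change 1.21, adjusted p = 2.25e-07). Ext1, a subunit of the chain polymerase, had 496 ± 32.8 CPM with TGF-β1 and 263 ± 0.383 CPM in control (log2 fold change 0.92). Xylt1, a xylosyltransferase that starts the linker on the core protein, rose by 0.79 on the log2 scale, and Hs6st2, a 6-O-sulfotransferase, by 0.72. The 2 that fell, named after their values were seen, were the scarce Extl1 (log2 fold change -1.83) and Hs3st1, a 3-O-sulfotransferase (-1.08).

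Genes that edit the chains outside the cell, or that cut or process core proteins, were split. Of 19 tested, 7 were higher, 8 lower and 4 did not pass. Thus 78.9% were called, beside 44.5% of all genes tested, with a median of -0.10. Without control replicate 1, 4 were lower. Adamts1, a secreted metalloproteinase, fell to 37.6 ± 4.45 CPM with TGF-β1, against 224 ± 14.3 CPM in control (log2 fold change -2.58). The proprotein convertases Pcsk6 and Pcsk5 moved apart, with log2 fold changes of -1.92 and 1.47, and the gelatinase Mmp9 rose by 1.80. Of the extracellular 6-O-endosulfatases, named after their values were seen, Sulf1 had 429 ± 13.0 CPM with TGF-β1 and 292 ± 2.80 CPM in control (log2 fold change 0.55). Sulf2 had 113 ± 1.82 CPM with TGF-β1 and 126 ± 1.71 CPM in control (log2 fold change -0.17). Its exons overlap those of Ncoa3 on the opposite strand, so that its value is uncertain, and its call ended without control replicate 1 (adjusted p = 0.0555).

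Among the proteins that bind syndecan tails or act downstream of them, 7 were higher, 5 lower and 8 did not pass of 20 tested. Here 60% were called, beside 44.5% of all genes tested, and the median was -0.01. Scaled by library totals alone, 4 were higher and 9 lower. Ezr, encoding the membrane-to-actin linker ezrin, fell most of those named by the rule, to 83.6 ± 3.74 CPM with TGF-β1, against 860 ± 14.4 CPM in control (log2 fold change -3.36, adjusted p = 3.79e-11). The Rac activator gene Tiam1 and the focal adhesion gene Vcl fell by 0.55 and 0.48 on the log2 scale, and the kinase gene Src rose by 0.40. Sdcbp, encoding syntenin, the PDZ protein that binds all syndecan tails, had 185 ± 2.02 CPM with TGF-β1 and 187 ± 0.457 CPM in control and did not pass (log2 fold change -0.01, adjusted p = 0.829). It was named after its value was seen, and its exons overlap Nsmaf on the opposite strand. Scaled by library totals alone, it was called lower (log2 fold change -0.11, adjusted p = 0.0192).

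Other proteoglycans that can carry heparan sulfate gave 2 higher, 2 lower and 4 not passing of 8 tested (median 0.06), so that 50% were called, near the 44.5% of all genes. Col18a1, a basement membrane collagen, and Cd44, the hyaluronan receptor, rose by 1.46 and 1.20 on the log2 scale, while Tgfbr3, the co-receptor betaglycan, had a log2 fold change of -2.28. Agrn, encoding agrin, had 210 ± 19.2 CPM with TGF-β1 and 264 ± 22.6 CPM in control (log2 fold change -0.33, adjusted p = 0.00483). Its call ended without control replicate 2 (adjusted p = 0.0769), which left 1 lower.

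Of 23 ligands tested that bind heparan sulfate, 10 rose, 9 fell and 4 missed the threshold (median -0.13). That is 82.6% called, beside 44.5% of all genes tested. Hbegf, a heparin-binding EGF receptor ligand, rose to 268 ± 21.8 CPM with TGF-β1, against 26.7 ± 1.80 CPM in control (log2 fold change 3.33). Fgf10, a growth factor that acts on lung epithelium, and Bmp4 had log2 fold changes of -2.24 and -2.20, and Lpl, the lipase held on heparan sulfate, -2.84. Of 21 receptors that act with these proteoglycans, 10 were higher, 7 lower and 4 did not pass (median 0.01). So 81% were called, again beside 44.5% of all genes tested. Itga5, the α5 chain of the integrin α5β1 that acts with syndecan-4 on fibronectin, rose to 3823 ± 9.39 CPM with TGF-β1, against 1187 ± 17.1 CPM in control (log2 fold change 1.69), in the libraries in which Sdc4 fell. Itgb3, the β3 chain, rose by 2.40, and the receptor genes Met and Pdgfra had log2 fold changes of -2.13 and -2.02.

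**Figure D4:**
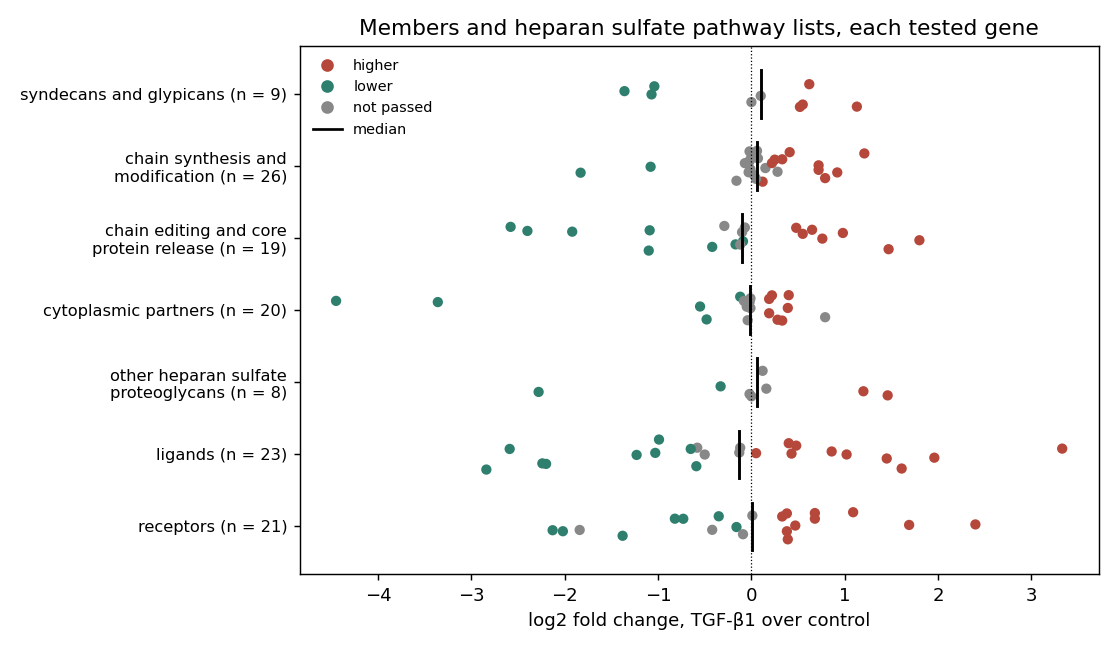
Log2 fold change, TGF-β1 over control (x axis), of every tested gene among the members and the 6 pathway lists (rows), with the call in colour and the row's median as a black bar. Each row holds genes on both sides of 0, and the medians lie between -0.13 and 0.10.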

How the data were processed

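What the authors deposited is a table of raw counts, whole numbers for each Ensembl gene in the 5 libraries. Of programs and builds, mm10, STAR 2.5.3a and StringTie 1.3.1c stand in the submitters' processing notes, without their roles; which program counted, with which strand setting and annotation release, is not given in the sources used. Per the labels' protocols, polyA RNA was made into stranded libraries. Columns were matched to samples, and samples to groups, by title.

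Symbols, coordinates (1-based, whole gene) and exon lengths came from GENCODE M21 (GRCm38), which matched 55154 of 55335 IDs; the 181 others stayed in the tests. Low genes were dropped by edgeR's filterByExpr (by group), libraries were scaled by TMM (factors 0.972 to 0.974 with TGF-β1, 1.04 and 1.05 in controls), and 16380 were tested with edgeR's two-sided quasi-likelihood test on group alone. The SE is the absolute log2 fold change over the square root of F. Exact permutation of the 5 libraries gives p = 0.1 at the least, and the test's smaller p-values borrow the spread of other genes (common biological coefficient of variation 0.0765). On counts simulated for this comparison over 16380 genes, 16180 were unchanged, and 25 of those were called. Of 50 genes changed at each fold, 14 were called at 1.25-fold, 27 at 1.5-fold, 38 at 2-fold and 44 at 4-fold. The simulation changed a far smaller share of genes than the 44.5% called in the data, so these rates may differ from those in the data.

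The members, the 13 gene lists with 199 entries and the tests were chosen with earlier results of these data known. An entry, Sdccag3, was left out as no syndecan partner. Named were the members and, per list, the 4 called genes (at the 0.05 threshold) with the largest change among those that averaged 5 CPM or more, or else the most abundant gene; others say so. Exon overlaps with a gene at over 0.1 of the named gene's level are marked. Alternatives were other scalings, filters and tests, the replicate number as a block, leaving out each library, and the longest transcript as length. Fits used edgeR 4.0.16 (alternatives DESeq2 1.42.0 and limma 3.58.1) in R 4.3.3, and tables and plots used Python 3.11.15 with scipy 1.17.1, numpy 2.4.6, matplotlib 3.10.9 and pandas 2.3.3.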

Additional observations from a re-analysis of the deposited data

How the results depend on the processing

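The calls of Sdc4, Gpc1, Gpc3 and Gpc6 kept their direction and passed under all 14 alternatives run, with log2 fold changes of -1.46 to -1.32, 1.03 to 1.17, -1.17 to -1.01 and -1.14 to -0.99. Sdc1, Sdc3 and Gpc4 lost their call only in the test against a 1.5-fold change, in which Xylt1, Tiam1, Vcl, Src, Agrn, Hs3st1, Sulf1 and Sulf2 did not pass either. In that test 563 genes were higher and 1223 lower, among them 1 member higher and 3 members lower, and the lists gave 3 higher and 1 lower for chain synthesis, 4 and 4 for editing and release, 0 and 2 for cytoplasmic partners, 5 and 7 for ligands, 5 and 4 for receptors and 2 and 1 for other proteoglycans. Library totals alone moved the median of all genes to -0.10, the higher share of calls to 32.1% (47.9% with TMM) and the higher count to 2325; cytoplasmic partners then gave 4 higher and 9 lower, by the construction of that scaling. Sdc2 changed sign, without a call, with library totals (-0.10), without the low-count filter (0.00, just below 0), with upper-quartile scaling (-0.01) and without control replicate 2 (-0.06; the leave-one-out values reached 0.07). Gpc2 changed sign with Gm43720 joined (-0.09) and without control replicate 2 (-0.17; the leave-one-out values reached 0.43). Leaving out each library gave 4 to 8 lower genes in the editing list and 1 to 2 among other proteoglycans; the cause was not tested. With the longest transcript as length, the Sdc4 share was 18.2% with TGF-β1 and 39.9% in control.

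Replicate numbers are shared between groups, and the deviations of same-numbered libraries from their group means correlated at 0.016. With 2 controls the control deviations mirror each other by construction, so this value cannot show whether same-numbered libraries were paired. With the replicate block 4 members were higher and 3 lower, and 3538 genes were higher and 3727 lower among all tested. Gpc5, which had no count, could not be tested at these depths. Gpc2 and Gpc6, at under 20 CPM, had 486 to 696 and 253 to 577 counts per library.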
